A study of Mus musculus with 2 samples.

Results

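Oxidative phosphorylation is carried out by proteins of both genomes of the cell, and their transcripts were followed here in sorted mouse small cell lung cancer cells from a vehicle library and a cisplatin library. The genes were taken by symbol: names starting with mt-, Ndufa, Ndufb, Ndufc, Ndufs, Ndufv, Sdh, Uqcr, Cox4 to Cox8 or Atp5, without the Ndufaf assembly factors and pseudogene symbols. This gave 102 of the 28692 genes in the count tables, 89 of the nuclear genome and 13 of the mitochondrial genome. With at least 50 unique molecular identifiers (UMIs, tags that let each captured RNA molecule be counted once) over both libraries, 98 were measured, 85 nuclear and all 13 mitochondrial. Cox7b2 (11 UMIs in vehicle and 5 in cisplatin), Ndufa4l2 (18 and 10), Cox8b (0 and 0) and Cox8c (0 and 0) fell under that minimum.

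Small cell lung cancer is a neuroendocrine lung tumour that is treated with platinum drugs. The tumours arose in mice of mixed strain that carried CreER, a Cre recombinase switched on by tamoxifen, at the CGRP locus. Rb1, Trp53 and a further tumour suppressor gene were floxed, and a Rosa26 mTmG reporter turned recombined cells to GFP. Both libraries share these alleles, and the sort kept live GFP cells, so the data hold cells that descend from CGRP-expressing cells. Vehicle mice received saline and cisplatin mice 5 mg per kg of the DNA-crosslinking drug cisplatin every 4 days for 2 weeks, and 5000 cells per library were loaded on the 10x Genomics platform. The labels also name chemotherapy and etoposide for the treated library, so the treatment is called cisplatin with that reservation. How many animals were used, and their age, is not stated in the labels. With 1 library per treatment there is no replicate spread, no test was made, and every interval below is an exact 95% interval that covers counting error only.

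The inner mitochondrial membrane holds the respiratory chain. Complex I takes electrons from NADH and complex II from succinate, both pass them through coenzyme Q to complex III, cytochrome c carries them on to complex IV, which reduces oxygen, and complexes I, III and IV pump protons. Complex V, the ATP synthase, uses the proton gradient to make ATP. The mitochondrial genome encodes core subunits of complexes I, III, IV and V, transcribed as long precursors from each strand and cut into single messengers, whereas complex II and all other subunits come from nuclear genes and are imported. Nuclear factors such as NRF1 and the ETS factor GABPA are known to bind promoters of many of these nuclear genes.

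The nuclear genes were looked up in the RefSeq promoter table (GRCm38.p6, 300 bases from 250 before to 50 after the start), which held 71 of the 89. The letters CGCATGCGC, the core that NRF1 binds, stood on either strand in 8 of the 71 (11.3%), against 1.81% of 27025 promoters of the same length. CCGGAAG, an ETS core, stood in 18 (25.4%, against 9.12%). AAGATGGCG, a YY1 core, stood in 6 (8.45%, against 1.49%) and TCAAGGTCA, bound by ERRA, in 2 (2.82%, against 0.407%). These are matches of letters and not shown to be bound sites in these cells. The promoters below are the 4 that hold both the NRF1 and the ETS letters, from genes of 3 complexes, written from 5′ to 3′ on the strand of the gene, and capitals mark the matches. Where the NRF1 letters stand on both strands 1 base apart, both matches are in capitals.
Atp5k promoter, chr5:108434350-108434649, minus strand: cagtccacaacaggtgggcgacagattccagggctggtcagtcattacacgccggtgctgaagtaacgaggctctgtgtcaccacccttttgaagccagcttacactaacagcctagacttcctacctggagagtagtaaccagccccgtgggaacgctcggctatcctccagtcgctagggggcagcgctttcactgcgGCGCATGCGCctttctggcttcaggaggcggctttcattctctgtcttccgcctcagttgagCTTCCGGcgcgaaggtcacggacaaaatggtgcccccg
Cox6a1 promoter, chr5:115348909-115349208, minus strand: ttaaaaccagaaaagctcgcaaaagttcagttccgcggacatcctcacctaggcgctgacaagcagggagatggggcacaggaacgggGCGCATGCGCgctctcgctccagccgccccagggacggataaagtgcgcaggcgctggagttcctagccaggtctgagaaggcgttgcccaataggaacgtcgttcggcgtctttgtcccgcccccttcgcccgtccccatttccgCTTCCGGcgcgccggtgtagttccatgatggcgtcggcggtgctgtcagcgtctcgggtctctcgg
Uqcr11 promoter, chr10:80406772-80407071, minus strand: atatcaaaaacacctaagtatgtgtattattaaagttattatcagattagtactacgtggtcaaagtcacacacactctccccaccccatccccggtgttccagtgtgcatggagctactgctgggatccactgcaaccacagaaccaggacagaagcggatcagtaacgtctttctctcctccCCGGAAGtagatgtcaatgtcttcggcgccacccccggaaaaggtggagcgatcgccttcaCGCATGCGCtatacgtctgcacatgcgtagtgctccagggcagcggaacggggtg
Atp5l promoter, chr9:44920693-44920992, minus strand: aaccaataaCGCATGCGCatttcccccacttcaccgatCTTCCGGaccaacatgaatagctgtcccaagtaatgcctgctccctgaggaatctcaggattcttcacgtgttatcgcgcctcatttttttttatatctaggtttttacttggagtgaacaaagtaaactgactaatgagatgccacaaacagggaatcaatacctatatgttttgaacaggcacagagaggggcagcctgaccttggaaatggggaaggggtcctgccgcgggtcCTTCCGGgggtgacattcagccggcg
The 8 genes with the NRF1 letters had a median log2 ratio of cisplatin over vehicle of 0.21 (-0.12 to 0.54) in the tumour-like cells described next, and the 18 with the ETS letters one of 0.19 (-0.16 to 0.54). The 6 with the YY1 letters had one of 0.16 (-0.21 to 0.28) and the 2 with the ERRA letters one of 0.02 (-0.04 to 0.07). The median over all 85 measured nuclear genes was 0.12.

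The mitochondrial genes lie next to each other on 1 circular chromosome, and some share bases. The last 43 bases of mt-Atp8 are also the first of mt-Atp6 (chrM:7927-7969, GRCm38, plus strand), and the sequence is shown because UMIs there can belong to either gene. Capitals mark the start codon of mt-Atp6.
mt-Atp8 and mt-Atp6 overlap: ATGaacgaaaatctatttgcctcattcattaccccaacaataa
mt-Nd4l and mt-Nd4 share 7 bases, and mt-Nd5 shares 14 with mt-Nd6, which is read from the other strand. The ends below belong to 2 genes that were lower in cisplatin (mt-Nd2, mt-Nd3) and 2 that were higher (mt-Co1, mt-Atp6), 60 bases each with the stop codon in capitals.
mt-Nd2 end: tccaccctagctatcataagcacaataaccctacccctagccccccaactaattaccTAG
mt-Nd3 end: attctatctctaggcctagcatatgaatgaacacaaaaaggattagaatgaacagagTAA
mt-Co1 end: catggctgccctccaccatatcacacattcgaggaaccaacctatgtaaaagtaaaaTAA
mt-Atp6 end: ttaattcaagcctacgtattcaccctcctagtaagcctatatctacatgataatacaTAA

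The vehicle library held 3726 barcodes with 32519922 UMIs (median 8168 per barcode), and the cisplatin library 4254 with 28777462 (median 5925), and 23 barcode sequences occurred in both. After filters and clustering, 3529 vehicle and 4096 cisplatin barcodes, 96.1% and 97.1% of those kept, formed a tumour-like class. Its 14 neuroendocrine markers summed to 7169 CPM (a gene's UMIs per 1000000 UMIs of the same cells) in vehicle and 11031 in cisplatin, with 12 and 13 of them at 100 CPM or more. Marker sets of other cell types stayed lower. The 4 club cell markers summed to 182 and 476 CPM, the 5 alveolar type 2 markers to 55.2 and 202, and the 5 erythroid markers to 53.5 and 0.751. Clusters 6 and 8, with 37 vehicle and 797 cisplatin cells, also carried all 6 delta-like endocrine markers (summed over the class, 59.5 and 1100 CPM), so the class was mixed differently in the libraries. What these differences contribute to the values below was not tested, except where values without those cells are given.

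In the tumour-like class the oxidative phosphorylation genes took a slightly larger share of the RNA in the cisplatin library, from both genomes. Nuclear genes made up 3.56% of UMIs in vehicle and 3.92% in cisplatin, a log2 ratio of 0.14 (0.13 to 0.14). Mitochondrial genes made up 2.91% and 3.34%, a log2 ratio of 0.20 (0.20 to 0.20). The nuclear difference was spread over many small ones: 61 of 85 nuclear genes had a ratio above 0, and the median was 0.12. The median over all 13342 measured genes was -0.17, and 80 of the 85 lay above it.

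Few members passed a 1.5-fold difference. Among nuclear genes 2 were higher and 0 lower in cisplatin, against 6.63% of all measured genes higher and 17.8% lower. Set against the median of all genes, 9 nuclear genes were at least 1.5-fold above it (10.6% of all genes were) and 0 below it (10.2% of all genes). The share of higher nuclear genes was thus below or near that of all genes under both readings, and the absence of lower ones stood below it. TMM and median-of-ratios scaling moved the median of all genes by 0.14 and 0.17, and under them 9 and 10 of the 85 nuclear genes were higher (9.85% and 10.8% of all genes) and 0 lower under both (11.2% and 10.5% of all genes).

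**Figure D1:**
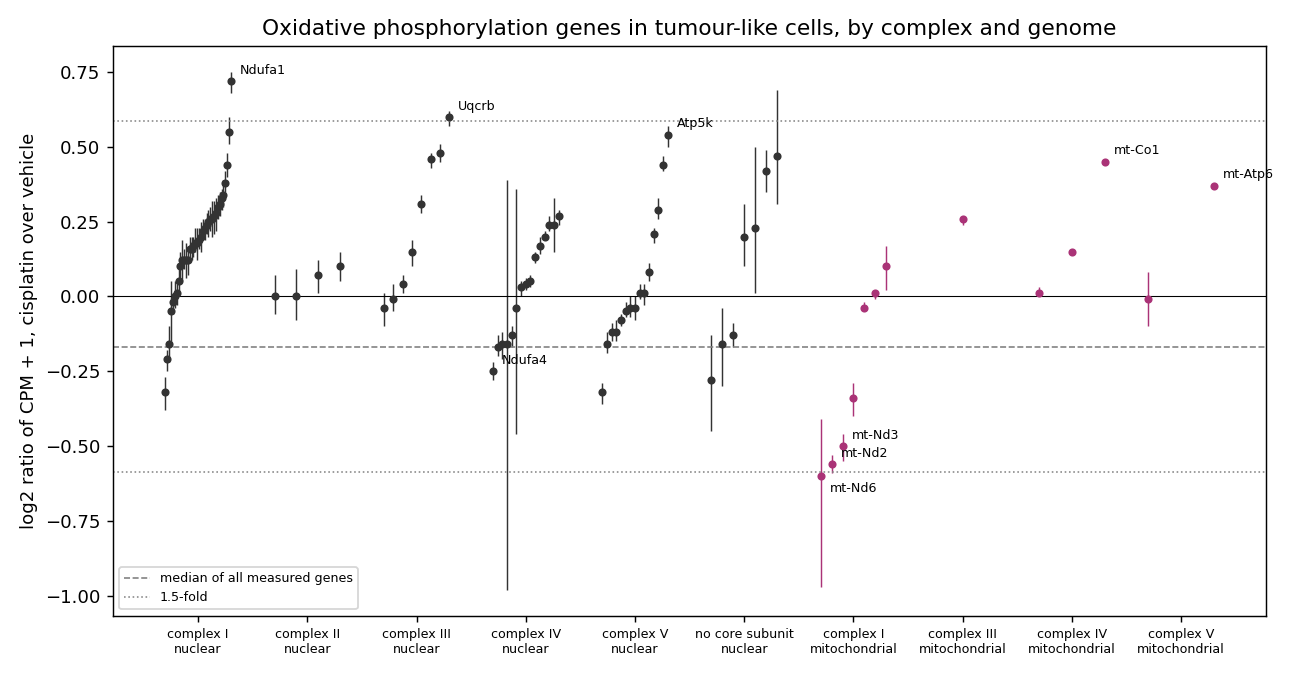
Log2 ratio of CPM plus 1, cisplatin over vehicle, for each measured oxidative phosphorylation gene in the tumour-like class, grouped by complex and genome and ordered by value within a group. Points are single genes, bars are exact 95% counting intervals, the dashed line is the median of all measured genes (-0.17) and the dotted lines are 1.5-fold; most nuclear genes lie between -0.32 and 0.55, and the mitochondrial genes of complex I reach down to -0.60.

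Nuclear genes of complex I, the NADH dehydrogenase, had a median log2 ratio of 0.19 over 36 genes, and 31 of them were above 0. The accessory subunits named Ndufa were above 0 in 13 of 13, with a median of 0.24. Ndufa1, a small membrane subunit encoded on the X chromosome (chrX:37187588-37191163, GRCm38), stood highest with 340 CPM in vehicle and 560 in cisplatin, a log2 ratio of 0.72 (0.68 to 0.75). It was high in cisplatin in every cell state compared below, though without the delta-like clusters its ratio was 0.43 (340 and 458 CPM), short of 1.5-fold. Ndufa3, another accessory subunit, had 222 and 325 CPM (0.55), and Ndufa5 276 and 374 (0.44). Toward the other end, Ndufs6, an accessory subunit (495 CPM in vehicle and 427 in cisplatin, -0.21), and Ndufv1, which binds NADH (170 and 152, -0.16), were lower in cisplatin. Of further core subunits, Ndufs1 stood at -0.05 (55.5 and 53.5 CPM) and Ndufs7 at 0.28 (181 and 219). Complex I values thus ran in both directions.

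Complex II, succinate dehydrogenase, was nearly level. Its 4 genes had ratios from 0.00 to 0.10, with Sdha, the flavoprotein that oxidises succinate, at 130 CPM in vehicle and 131 in cisplatin. Sdhb, the iron-sulfur subunit, had 233 and 249 CPM, Sdhc 78.0 and 78.1, and Sdhd 168 and 176. The 4 complex II assembly factors ran in both directions: Sdhaf3 (13.1 and 18.5 CPM, 0.47), Sdhaf4 (89.5 and 120, 0.42) and Sdhaf1 (50.6 and 58.3, 0.20) stood above these subunits in ratio and Sdhaf2 (34.6 and 30.8, -0.16) below them.

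Complex III had the highest median of the 5 complexes, 0.23 over 8 nuclear genes. Uqcrb, a small subunit near the site where coenzyme Q binds, had 753 CPM in vehicle and 1139 in cisplatin, a ratio of 0.60 (0.57 to 0.62). Uqcr11 had 561 and 784 CPM (0.48) and Uqcr10 713 and 978 (0.46). The intervals of these 3 small subunits lay above 0. Of the other small subunits Uqcrq had 547 and 677 CPM (0.31), while Uqcrh was level at 611 and 627 (0.04). The large core subunits were level as well, with Uqcrc1 at 246 and 244 CPM and Uqcrc2 at 204 and 198. Uqcrfs1, the Rieske iron-sulfur protein, had 264 and 293 CPM (0.15). Uqcrb was at 756 and 1112 CPM without the delta-like clusters (0.56), just short of 1.5-fold.

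Complex IV, cytochrome c oxidase, had a median of 0.04 over 15 measured nuclear genes, and -0.10 once the trend of the ratio with transcript length was removed. The most abundant subunits differed little: Cox4i1 had 1221 CPM in vehicle and 1243 in cisplatin, and Cox8a 1327 and 1360. Cox6b1, which lies on the intermembrane face, had 808 and 971 CPM (0.27). Ndufa4, named after complex I but known as a subunit of complex IV, had 657 and 553 CPM, a ratio of -0.25 (-0.28 to -0.22) and the lowest of the complex. Its ratio was -0.13 without the delta-like clusters, -0.09 under TMM and -0.06 under median-of-ratios scaling.

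Complex V had a median of -0.04 over 15 nuclear genes, which turned to a value above 0 under TMM and median-of-ratios scaling and as a mean over cells. In CPM the catalytic head subunits were level or lower in cisplatin, though Atp5a1 alone of the 15 lay under the median of all genes. Atp5a1, the alpha subunit, had 495 and 396 CPM (-0.32, -0.36 to -0.29), Atp5b, the beta subunit, 1028 and 995 (-0.05), and Atp5d 432 and 387 (-0.16). Small membrane subunits that hold the synthase in dimers were higher: Atp5k, the e subunit, had 394 and 572 CPM (0.54, 0.50 to 0.57), and Atp5l, the g subunit, 960 and 1306 (0.44, 0.42 to 0.47). Atp5k stood at 0.48 without the delta-like clusters. Both are among the promoters printed above.

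Short transcripts as a whole ran higher in cisplatin, and these genes are short. The median transcript was 1129 bases for the 85 nuclear genes and 3293 for all measured genes. Over all genes, the 786 under 1000 bases had a median log2 ratio of 0.13 and the 4901 over 4000 bases one of -0.36. With that trend removed, the nuclear median was 0.07, 56 of 85 were above 0 and 4 were at least 1.5-fold higher (10% of all genes were). Ndufa1 was then at 0.50 and Uqcrb at 0.42, while Atp5l was at 0.85, Ndufb2 at 0.61 and Atp5g1 at 0.59. The last 3 and Sdhaf3 (0.73) were the 4 past 1.5-fold. Their longest annotated transcripts had 6310, 4371, 4715 and 4323 bases, all over 4000. Each length is that of the longest annotated transcript of a gene, and these 4 values depend on that choice. Whether these cells used shorter transcripts, and which part of each was captured, was not tested. Uqcrb overlaps Gm10767 on the other strand. Ndufb2 overlaps Gm16272 and Braf on the other strand and Gm42420 on its own. Cox4i1 overlaps Gm20388 on its own strand. Further members named here, such as Ndufa3, Ndufs6, Atp5a1 and Atp5d, overlap a gene on the other strand. Reads of such overlapping genes may not be told apart from those of the members.

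Mitochondrial genes did not move as a block. The 7 mt-Nd genes of complex I had a median of -0.34, with 2 of them above 0, while mt-Cytb, mt-Co1, mt-Co3 and mt-Atp6 were higher. mt-Nd2 had 1000 CPM in vehicle and 678 in cisplatin (-0.56, -0.59 to -0.53), and mt-Nd3 had 288 and 203 (-0.50, -0.55 to -0.46). mt-Nd5 had 212 and 167 CPM (-0.34). Each of these 3 was lower in cisplatin under every setting tried for the whole class. mt-Nd6, the gene on the other strand, was counted 293 and 163 times, or 9.39 and 5.83 CPM (-0.60, -0.97 to -0.41). It was the 1 mitochondrial gene of 13 at least 1.5-fold lower (17.8% of all genes were), with 0 higher (6.63% of all genes). Against the median of all genes 1 was higher, mt-Co1 (10.6% of all genes were), and 0 lower (10.2% of all genes). mt-Nd1 (2376 and 2388 CPM), mt-Nd4 (1881 and 1833) and mt-Nd4l (92.7 and 99.2) lay within 0.10 of level, and each changed sign under at least 2 of 15 other settings.

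mt-Co1, the catalytic core of complex IV, had 4413 CPM in vehicle and 6012 in cisplatin (0.45, 0.44 to 0.46). mt-Atp6, which forms the proton path of the ATP synthase, had 6647 and 8602 (0.37, 0.36 to 0.38). mt-Cytb, the core of complex III, had 3069 and 3668 CPM (0.26), and mt-Co3 5769 and 6410 (0.15). mt-Co2 was level at 3224 and 3253 CPM. mt-Atp8, which shares its messenger with mt-Atp6, was also level at 68.8 and 68.5 CPM (-0.01, -0.10 to 0.08). The 2 genes on that shared messenger thus differed in ratio, and so did mt-Nd2 and mt-Co1, the next protein gene on the same strand.

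**Figure D2:**
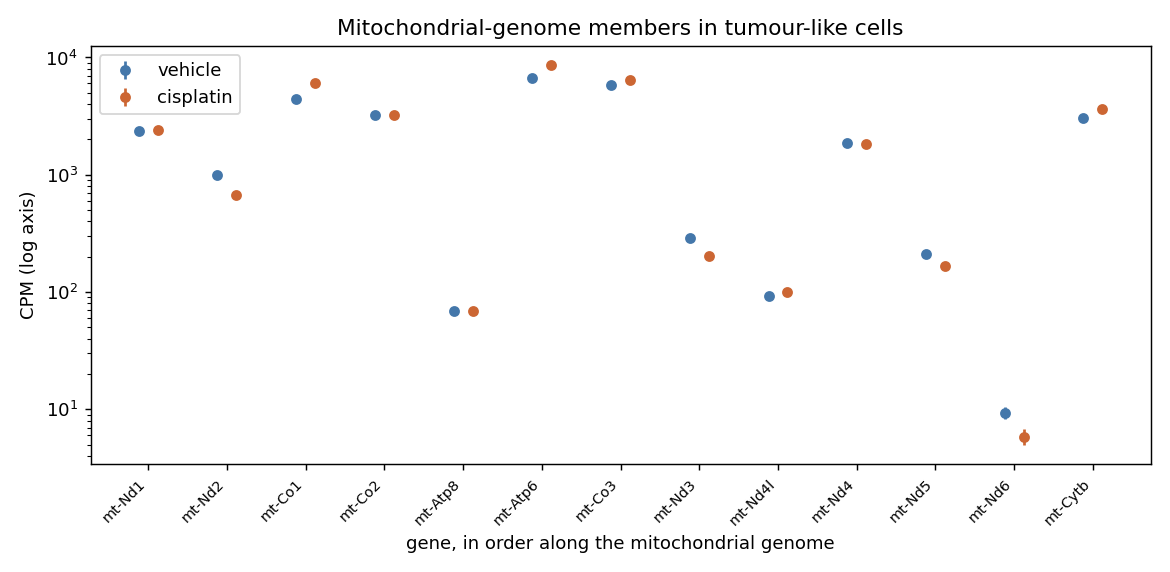
CPM on a log axis for the 13 mitochondrial genes in the tumour-like class, in their order on the chromosome, with 1 point per library and exact 95% counting bars that are mostly smaller than the points. The cisplatin point lies under the vehicle point at mt-Nd2 (678 against 1000), mt-Nd3 and mt-Nd6, and over it at mt-Co1 (6012 against 4413) and mt-Atp6.

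Cells were then split by their cell cycle genes, outside the delta-like clusters and after thinning each to 3000 UMIs: mitotic cells with at least 2 UMIs of 10 mitotic genes (1269 in vehicle, 1246 in cisplatin), replicating cells with at least 3 UMIs of 16 DNA replication genes (1095 and 797), and cells of neither kind (992 and 961). Cells under 3000 UMIs, 136 and 295, were left out. All their UMIs were then used for the values. The mitochondrial share was close between libraries in mitotic cells, 2.79% in vehicle and 2.91% in cisplatin (log2 ratio 0.06, 0.05 to 0.07). It was 2.98% and 3.39% in replicating cells (0.19, 0.18 to 0.20). In cells of neither kind it was 2.95% and 3.93% (0.41, 0.40 to 0.42). With cells of all depths together, the libraries thus lay furthest apart in the cells with neither signature, but not among the shallowest cells, as the values by depth given later show. The nuclear share showed no such order, at 3.46% and 3.69% in mitotic, 3.71% and 4.06% in replicating and 3.64% and 3.96% in the remaining cells. Mitochondrial UMIs per nuclear UMI of these genes were 0.812 in vehicle and 0.992 in cisplatin in the cells of neither kind, and 0.808 and 0.789 in mitotic cells.

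**Figure D3:**
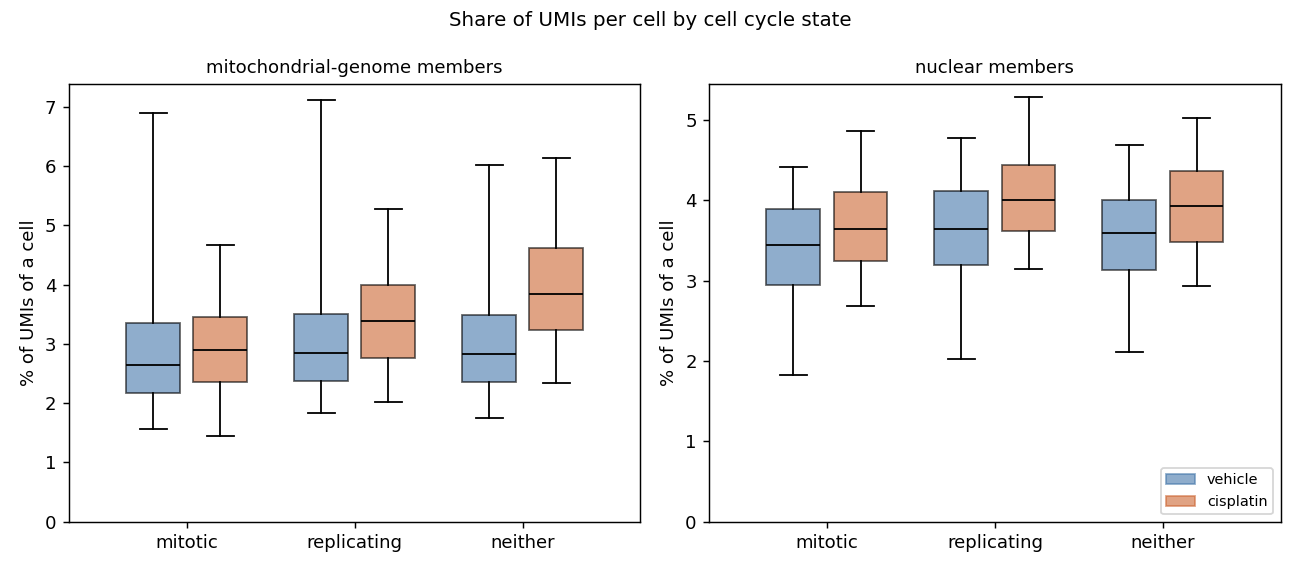
Percent of a cell's UMIs from mitochondrial (left) and nuclear (right) oxidative phosphorylation genes, by cell cycle state and library; boxes span the 25th to 75th percentiles of cells, the line is the median, and whiskers reach the 5th and 95th. The median mitochondrial share in cells of neither kind is 2.83% in vehicle and 3.84% in cisplatin, while in mitotic cells it is 2.64% and 2.90%.

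Single genes followed the state. In mitotic cells 0 nuclear genes were 1.5-fold higher (4.62% of all genes were) and 0 lower (18.0% of all genes), and mt-Nd2 (961 and 571 CPM, -0.75) and mt-Nd6 (9.63 and 5.08, -0.81) were lower. In replicating cells 2 nuclear genes were higher (4.34% of all genes), Uqcrb (764 and 1172 CPM, 0.62) and Sdhaf3 (13.3 and 23.0, 0.74), 0 were lower (18.4% of all genes), and mt-Nd2 was lower (1033 and 659). In cells of neither kind 0 nuclear genes were higher (4.20% of all genes) and 0 lower (18.3% of all genes), and mt-Co1 (4564 and 7232 CPM, 0.66) and mt-Atp6 (6745 and 10341, 0.62) were higher. So, with cells of all depths together, the mitochondrial genes past 1.5-fold were lower ones in mitotic and replicating cells and higher ones in the rest. mt-Nd2 stayed lower in cisplatin there too, at 1018 and 759 CPM (-0.42). Of the 13, 11 had a ratio in cells of neither kind above that in mitotic cells with intervals apart. For mt-Nd6 (-0.51, -1.22 to 0.04, against -0.81, -1.42 to -0.45) and mt-Atp8 (0.13, -0.06 to 0.33, against -0.11, -0.26 to 0.04) the intervals overlapped.

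**Figure D4:**
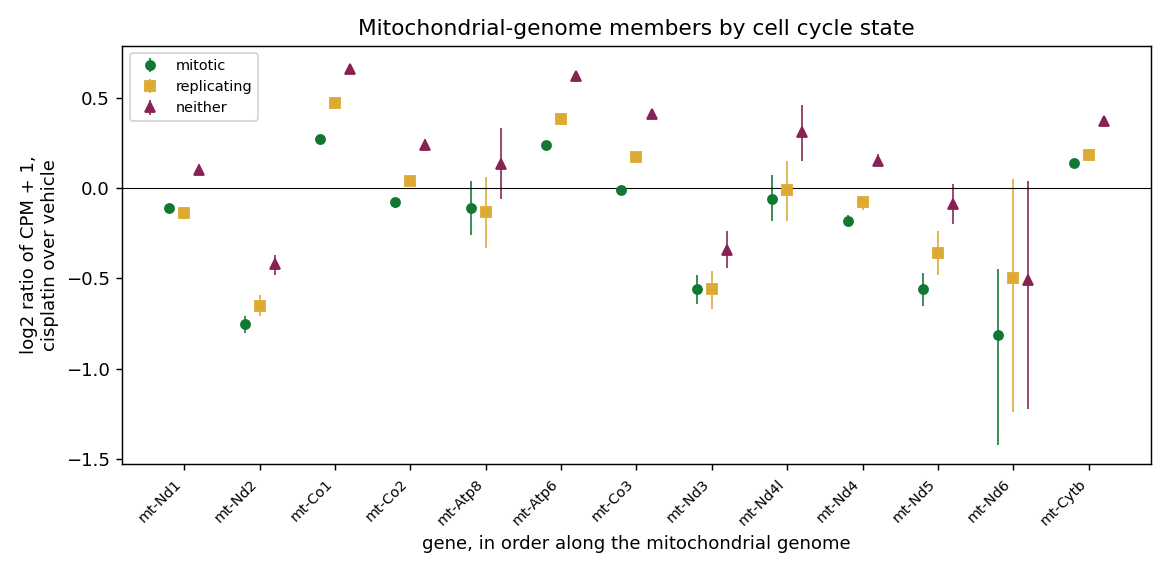
Log2 ratio of CPM plus 1, cisplatin over vehicle, of each mitochondrial gene in mitotic, replicating and neither cells, in chromosome order, with exact 95% counting intervals as bars. The triangles of the neither cells lie above the circles of the mitotic cells, with bars that overlap at mt-Nd6 and mt-Atp8, for mt-Co1 at 0.66 against 0.27 and for mt-Nd2 at -0.42 against -0.75.

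The same contrast can be read inside each library, where both states share the treatment and the library. In vehicle, with cells of all depths together, mitochondrial levels were close in cells of neither kind and mitotic cells. Ratios ran from -0.07 to 0.15, with a median of 0.07. In cisplatin, the 13 ratios ran from 0.21 to 0.57 with a median of 0.40. The intervals of 12 lay above 0, while that of mt-Nd6, with 52 UMIs in mitotic and 33 in neither cells, did not (0.23, -0.41 to 0.92). mt-Atp6 had 6408 CPM in mitotic and 6745 in neither cells of the vehicle library, and 7546 and 10341 in the cisplatin library. None of the 13 passed 1.5-fold in either library.

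Depth moved with these values. Cells of neither kind had a median of 7492.5 UMIs in vehicle and 4920 in cisplatin, and mitotic cells 10041 and 7771. In both libraries the mitochondrial share was lower in deeper cells of these states, with a smaller fall in cisplatin. At 6000 to 10000 UMIs per cell the share in neither cells was 2.80% in vehicle and 3.94% in cisplatin (0.49), and over 10000 UMIs 2.65% and 3.55% (0.42). At 3000 to 6000 UMIs it was 4.03% and 4.0% (-0.01), so the libraries were level in the shallowest cells. That band held 270 of the 992 vehicle and 677 of the 961 cisplatin neither cells. For mitotic cells the ratio was -0.51 at 3000 to 6000 UMIs (4.52% and 3.18%), -0.05 at 6000 to 10000 and 0.16 above that. In each of the 3 bands the neither cells had the higher ratio. At 3000 to 6000 UMIs 0 of 12 mitochondrial genes were 1.5-fold higher in neither cells (6.97% of all genes) and 2 lower (25.4%). In mitotic cells of that depth 0 of 12 were higher (7.44% of all genes) and 7 lower (24.1%). At 6000 to 10000 UMIs 2 of 12 were higher in neither cells (4.50% of all genes) and 0 lower (15.7%). In mitotic cells 0 of 13 were higher there (6.04% of all genes) and 4 lower (18.9%).

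The nuclear genes differed by depth too. At 3000 to 6000 UMIs their share was 2.86% in vehicle and 3.80% in cisplatin in mitotic cells (0.41), and 3.14% and 3.97% in neither cells (0.34). At 6000 to 10000 UMIs both ratios were 0.09, and over 10000 UMIs they were 0.06 and 0.09. Among the shallow mitotic cells 13 of 81 nuclear genes were 1.5-fold higher (7.44% of all genes), Uqcrb, Uqcr10, Uqcr11, Atp5k and Atp5l among them, and 0 lower (24.1% of all genes). Among the shallow neither cells 9 of 82 were higher (6.97% of all genes), Ndufa1 and Uqcrb among them, and 0 lower (25.4% of all genes). At 6000 to 10000 UMIs 3 of 83 were higher in mitotic cells (6.04% of all genes) and 1 lower (18.9% of all genes), and in neither cells 1 was higher (4.50% of all genes), Ndufa1, and 0 lower (15.7% of all genes). With all depths together 0 nuclear genes were higher in either state, so these counts differed by depth.

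Cluster 4, a mitotic cluster with 183 vehicle and 107 cisplatin cells, had the opposite sign to the class, with a mitochondrial share of 2.41% and 2.08% (-0.21). The 136 and 295 cells under 3000 UMIs outside the delta-like clusters did so too, at 5.27% and 4.32% (-0.29). Their nuclear share was 2.69% in vehicle and 3.67% in cisplatin (0.45).

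Cells with a high mitochondrial share differed between the 2 libraries in their nuclear share and in how often they occurred by state. Whether they were another kind of cell was not tested. Cells over 5% mitochondrial UMIs made up 12.5% of the vehicle class (11.4 to 13.6) and 11.4% of the cisplatin class (10.4 to 12.4). Among mitotic cells they were 12% and 3.93%, and among neither cells 8.87% and 15.9%. In vehicle such cells were shallow (median 3791.5 UMIs against 8690 for the rest) and poor in the nuclear transcripts of the same pathway, at 2.34% of UMIs against 3.64%. In cisplatin they held 4.0% against 3.91%, with a median of 4179 UMIs against 6299.5. Across single thinned cells, the mitochondrial and nuclear counts had a Pearson r of -0.50 in 1269 vehicle mitotic cells, -0.52 in 1095 replicating and -0.47 in 992 neither cells. In cisplatin r was 0.00, -0.06 and -0.07 over 1246, 797 and 961 cells. These cells share a library and a fixed total of 3000 UMIs, so r is given as a description. Without cells over 5%, the mitochondrial ratio was 0.38 in neither cells and 0.15 in mitotic cells.

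Some subunits of complex IV exist in tissue-restricted forms, and 2 of these were abundant enough to follow by state. Cox6b2, the form of subunit 6b known from testis, had 65.7 CPM in vehicle and 77.5 in cisplatin over the class. In the vehicle library it had 113 CPM in mitotic cells, 26.2 in replicating and 32.3 in neither cells. In the cisplatin library it had 147, 33.0 and 30.2 CPM. It was thus high in mitotic cells of both libraries, with a ratio of neither over mitotic of -1.78 (-2.01 to -1.62) in vehicle and -2.24 (-2.52 to -2.04) in cisplatin. As a share of Cox6b1 and Cox6b2 UMIs it was 12.7% (12.1 to 13.3) and 13.7% (13.1 to 14.4) in mitotic cells, 3.01% and 3.20% in replicating, and 3.68% and 2.80% in neither cells. Its gene (chr7:4751792-4753094, GRCm38, minus strand) overlapped no other annotated gene.

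Of the nuclear genes, Cox6b2 was the 1 lower of 84 in neither against mitotic cells of the vehicle library (12.9% of all genes were lower), and 0 were higher (5.38% of all genes). In cisplatin 2 were lower (15% of all genes), Cox6b2 and Cox7a1 (52 and 12 UMIs), and 2 were higher (8.14% of all genes). Those were the complex I subunits Ndufb4, at 267 CPM in mitotic and 455 in neither cells, and Ndufb2, at 251 and 383. Both were chosen after their values were seen. In vehicle Ndufb4 had 270 and 363 CPM and Ndufb2 227 and 284, higher in neither cells as well but short of 1.5-fold. Replicating against mitotic cells of the cisplatin library gave the same genes, with Ndufb4 and Ndufb2 higher and Cox6b2 and Cox7a1 lower. Of all 11113 genes measured there, 516 were higher and 1017 lower. These differences thus set mitotic cells apart from both other states.

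Cox6a2, the form of subunit 6a known from heart and skeletal muscle, was abundant in these tumour cells, at 378 CPM in vehicle and 337 in cisplatin, beside 706 and 835 of the ubiquitous Cox6a1. Its share of both was 34.9% (34.4 to 35.4) in vehicle and 28.8% (28.3 to 29.3) in cisplatin. It was lower in cisplatin among mitotic cells (38.3% and 31.4%) and neither cells (36.3% and 31.6%), and level among replicating cells (28.6% and 28.8%). These shares also move with Cox6a1. In CPM, Cox6a2 itself had 410 in vehicle and 339 in cisplatin in mitotic cells (-0.27), 303 and 375 in replicating cells (0.31, 0.22 to 0.39), and 419 and 438 in neither cells (0.06, -0.01 to 0.14). Without the delta-like clusters it stood at 378 and 373 CPM over all states, which ran in opposite directions, and its ratio over the class, -0.17, turned to 0.02 under median-of-ratios scaling. Itgad overlaps Cox6a2 on the other strand, and the labels do not say whether counting used strand.

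The other restricted isoforms were rare or not detected. Cox4i2, the form linked to low oxygen, had 45 UMIs in vehicle and 33 in cisplatin, or 0.118% and 0.0949% of Cox4i1 and Cox4i2 UMIs. Cox7a1, the muscle form, had 111 and 96 UMIs (0.340% and 0.301% beside Cox7a2). Cox8b and Cox8c had 0 UMIs in both libraries, which allows up to 0.0961 CPM in vehicle and 0.107 in cisplatin. The 3 genes for the c subunit of the ATP synthase, which make the same mature protein, were all abundant and their balance differed. Atp5g1 was 27.5% of their UMIs in vehicle and 33.1% in cisplatin, Atp5g2 49.5% and 44.8%, and Atp5g3 22.9% and 22.0%. Atp5g1 had a larger share in cisplatin than in vehicle in all 3 states, for example 28.1% and 34.2% in neither cells. Atp5g3 did so in mitotic cells alone (22.9% and 23.5%), and Atp5g2 did so in none.

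**Figure D5:**
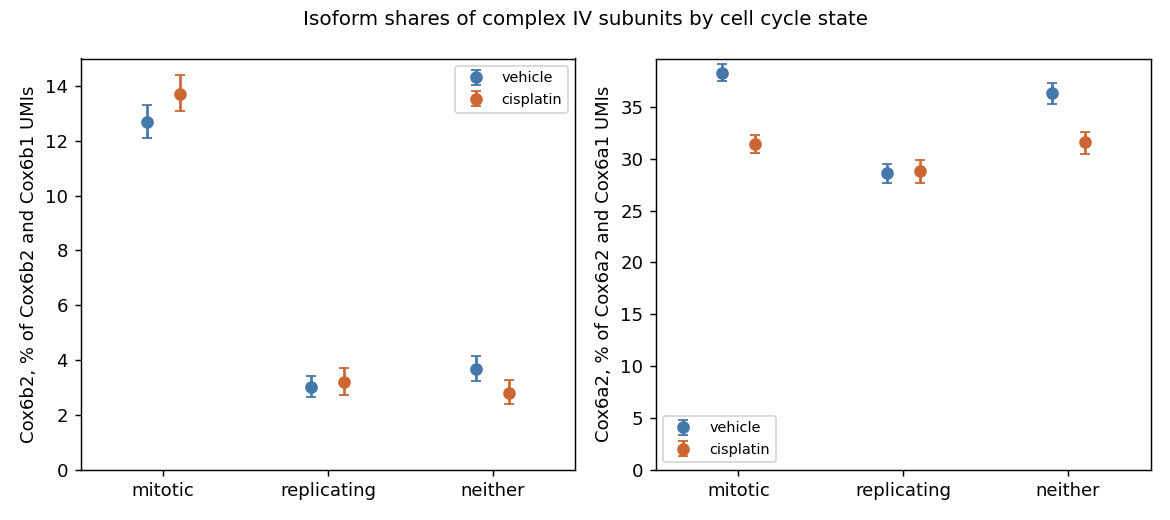
Share of Cox6b2 among Cox6b1 and Cox6b2 UMIs (left) and of Cox6a2 among Cox6a1 and Cox6a2 UMIs (right), in percent, by cell cycle state and library, with exact 95% binomial bars. Cox6b2 is at 12.7% and 13.7% in mitotic cells and under 4% elsewhere in both libraries, while Cox6a2 differs between libraries in mitotic cells (38.3% and 31.4%).

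The delta-like clusters, which carry somatostatin and other markers of delta endocrine cells, were compared with the other tumour-like cells inside the cisplatin library, 797 against 3299 cells. The mitochondrial share was alike (3.37% against 3.33%) and the nuclear share higher (4.16% against 3.84%). Of 84 nuclear genes 3 were higher (11.9% of all genes were) and 3 lower (17.0% of all genes). Ndufa1 had 458 CPM in the other cells and 890 in delta-like cells (0.96, 0.91 to 1.01), and 383 and 709 among mitotic cells alone. Ndufv3, a subunit of the NADH-binding module, had 338 and 535 CPM, and Ndufs4, an accessory subunit whose loss causes complex I deficiency, 147 and 232. These 3 complex I genes were high in the delta-like cells of the cisplatin library. The lower ones were 3 complex IV genes: Cox6a2 (373 and 221 CPM, -0.75), Cox6b2 (87.0 and 46.8, -0.88) and Ndufa4 (604 and 390, -0.63). Ndufs4 and Ndufv3 are named after their values were seen. In vehicle only 37 cells were delta-like, too few for a like comparison. There Ndufa1 had 340 CPM in the other cells and 353 in delta-like cells, and Cox6a2 had 378 and 382. The differences seen in cisplatin were thus not seen in vehicle for these 2 genes.

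Genes around the chain came from lists, whose counts are set against the 6.63% of all genes that were 1.5-fold higher and the 17.8% that were lower. Of 13 complex I assembly factors 0 were 1.5-fold higher or lower in the class (median 0.09). Of 27 measured factors for complexes III and IV 2 were higher, the copper chaperone Cox17 (370 and 586 CPM, 0.66) and Uqcc2 (278 and 417, 0.59), and 0 lower (median 0.01). Of 6 ATP synthase assembly and inhibitor genes 1 was higher, Usmg5, a small protein of the synthase dimer (544 and 871 CPM, 0.68), and the inhibitor Atpif1 had 967 and 1115. Cytochrome c, Cycs, had 414 and 506 CPM (0.29), and in its list of 13 (median -0.14, with 4 above 0) the testis form Cyct (298 and 122 UMIs) was the 1 past 1.5-fold. Mitochondrial ribosomal proteins had 0 of 76 past 1.5-fold (median 0.06), and of 23 import genes 1 was higher, Tomm6 (31.0 and 56.9 CPM). The proteasome, a set of other small housekeeping subunits, had a median of 0.09 over 38 genes, near the 0.12 of the nuclear members, and cytosolic ribosomal proteins one of -0.25 over 84.

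Regulators of the pathway stood lower, and their transcripts were long, with a median of 4644 bases. Of 8 measured regulators of mitochondrial genes 3 were 1.5-fold lower in cisplatin (17.8% of all genes were), the coactivators Ppargc1b (90 and 29 UMIs) and Pprc1 (213 and 113) and the nuclear receptor Esrra (15.4 and 8.84 CPM, -0.74), and 0 were higher, with a list median of -0.31. Ppargc1a had 5.19 and 7.55 CPM (0.47), Nrf1 29.8 and 27.0 (-0.14), and Gabpa 15.9 and 15.7 (-0.02). After removal of the length trend the median of the regulators was 0.00. Tfam, which packs and transcribes mitochondrial DNA, had 67.2 and 49.4 CPM (-0.44), and in its list of 29 upkeep genes Mterf1a alone was past 1.5-fold (5.77 and 9.16 CPM). Of 23 citrate cycle and pyruvate genes 2 were lower, citrate synthase Cs (97.2 and 63.9 CPM, -0.60) and Pdk1, a kinase that holds pyruvate dehydrogenase inactive (15.5 and 9.34), and 0 were higher. Of 7 carriers 1 was lower, Ucp2, an uncoupling protein family member (845 and 511 CPM, -0.73). None of the 6 chaperones and proteases passed 1.5-fold (median 0.03). The carrier list, which holds the ATP exchangers Slc25a4 and Slc25a5, had a median of -0.23, and -0.21 with the length trend removed.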

How the data were processed

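The deposited matrices give whole-number UMI counts for each gene in each barcode, per the file headers, and were not normalized. The submitters' processing notes list Cell Ranger 2.0.2 and, as the build, mm10. How reads shared with pseudogenes, or with copies of mitochondrial DNA in the nuclear genome, were counted is not given in the sources used here. These genes, lists and comparisons were chosen with earlier results of these data known.

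Barcodes with at least 500 genes and at most 10% mitochondrial UMIs were kept. The mitochondrial limit removed 44 vehicle and 36 cisplatin barcodes, and too few genes 10 and 2. Scrublet (scanpy 1.11.5) marked 1 and 6 barcodes, under the 0.5% set as a sign that it works, so no doublets were removed. Clustering used 10000 counts per cell, 2000 variable genes without the members or the lists, 30 components, 15 neighbours and Leiden resolution 0.5 (igraph 0.11.9, seed 1). A cluster was tumour-like with at least 3 neuroendocrine markers at 100 CPM and 20 UMIs and no other cell type at that level. Cluster 2 (135 vehicle and 120 cisplatin barcodes), with 4 club cell markers, and 21 and 6 barcodes with other markers were left out. Clusters 0 and 1 were nearly all vehicle and 5 and 7 nearly all cisplatin, so library and cluster cannot be told apart there. The naming thresholds were chosen after seeing the data.

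UMIs were summed over cells, scaled to CPM and compared as log2 of CPM plus 1. Intervals of ratios are of the counts without the added 1, and the limit for a count of 0 is 3 counts. No DESeq2 or edgeR test was made, and edgeR 4.0.16 and DESeq2 1.42.0 (R 4.3.3) gave only the TMM and median-of-ratios scalings. Other steps used Python 3.11.15, numpy 2.4.6, scipy 1.17.1, statsmodels 0.14.6 (lowess trend) and matplotlib 3.10.9. The ratios, their intervals and the 1.5-fold calls were tested on simulated counts that held counting error only. Clustering, cell states, thinning, the length trend and isoform shares were not tested in that way.

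Named by rule were all mitochondrial members, nuclear members past 1.5-fold, the 3 largest ratios per complex, the restricted isoforms with their partners, up to 3 genes per list past 1.5-fold, and Cycs, Atpif1, Tfam, Ppargc1a, Nrf1 and Gabpa. Other members were named for their role after their values were seen, and 1 gene that the rule takes is not reported here. Gene positions, transcript lengths and mitochondrial sequences are from GENCODE M21 (GRCm38), which held all 102 members.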

Additional observations from a re-analysis of the deposited data

Results flagged for a closer look

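For 3 mitochondrial genes the ratio of cisplatin over vehicle pointed one way in mitotic cells and the other way in cells of neither cell cycle state. mt-Nd4, a core subunit of complex I, was at -0.18 in mitotic cells (1783 CPM in vehicle and 1572 in cisplatin) and at 0.15 in neither cells (1947 and 2163). mt-Nd1, another core subunit, was at -0.11 (2289 and 2117) and 0.10 (2350 and 2518). mt-Co2, of complex IV, was at -0.08 (3123 and 2944) and 0.24 (3262 and 3864). With 1 library per treatment the difference between the states was not tested, and neither kind of cell was of equal depth in the libraries.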

How the results depend on the processing

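The mitochondrial log2 ratio, 0.20 in the class, was 0.23 with a 5% mitochondrial limit, 0.19 without the delta-like clusters, 0.11 both with cells thinned to 3000 UMIs and as a mean over cells, 0.36 under TMM and 0.39 under median-of-ratios scaling. The nuclear ratio, 0.14, was 0.15 over all barcodes and 0.10, 0.11, 0.18, 0.18, 0.30 and 0.32 under those settings. In groups added after seeing the data the 2 ratios were 0.14 and 0.12 in cluster 3, -0.21 and -0.04 in cluster 4, and 0.32 and 0.13 in clusters 1 and 5, and the mitochondrial ratio was 0.06 in clusters 0 and 7. The cause of the sign in cluster 4 was not tested. The count of higher nuclear genes, 2 (6.63% of all genes were higher), was 1 with the 5% limit and 0 without the delta-like clusters. It was 4 with thinned cells, as a mean over cells, and with the length trend removed (10.0% of all genes for the last). It was 9 under TMM (9.85% of all genes), 10 under median-of-ratios scaling (10.8%) and 9 relative to the median of all genes (10.6%). It was 13 with a lower limit of 25% and 0 at 2-fold. Shares of all genes for the remaining settings are not given here, so those counts are not read as a result about the members. The count of lower ones, 0 (17.8% of all genes), was 1 with that lower limit and 0 in the other settings. By depth, also added later, the mitochondrial ratio in neither cells, 0.41, was -0.01 at 3000 to 6000 UMIs and 0.49 at 6000 to 10000, and 0.38 with the 5% limit. That of mitotic cells, 0.06, was -0.51, -0.05 and 0.16 from the shallowest to the deepest band, and 0.15 with the 5% limit. Of 31 named members 20 kept their sign in all settings and 10 did not, Sdha stood at 0.00 (from -0.03 to 0.19), and the medians of complexes IV and V changed sign in some.

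No paired analysis was possible because each treatment has 1 library. Genes with few UMIs, such as mt-Nd6, Cox4i2 and Cox7a1, have wide intervals by state.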

Other observations

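Barcodes left out of the tumour-like class also differed between libraries in these genes. In cluster 2, which combined 11 neuroendocrine markers with the club cell genes Scgb1a1 and Cyp2f2, the mitochondrial share was 2.84% in 135 vehicle and 3.65% in 120 cisplatin barcodes, and the nuclear share 2.64% and 3.24%. The nuclear genes of this cluster thus took a smaller share than in the tumour-like class of the same library (3.56% and 3.92%). In the barcodes removed for over 10% mitochondrial UMIs, 44 in vehicle and 36 in cisplatin, the nuclear share was 2.08% and 3.55%. Their mitochondrial share, 11.5% and 13.2%, was bounded by the limit that picked them and is no separate observation. The vehicle barcodes among them were thus poor in nuclear transcripts of the pathway, as were the vehicle tumour-like cells over 5% (2.34%).

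Among the housekeeping lists, cytosolic ribosomal protein genes held far larger differences than any member of the respiratory chain. Rpl29 had 657 CPM in vehicle and 49.3 in cisplatin (-3.71), Rps12 1064 and 528 (-1.01), and Rps27rt 186 and 411 (1.14). These genes have near-identical copies, so the values are uncertain.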
